A study of Rattus norvegicus with 6 samples.

Results

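In all, 8 genes encoding enzymes of cholesterol synthesis were followed across the cell classes of the rat hippocampus, a brain region that serves memory. They were chosen by gene symbol and not by a measured value, though with earlier results of these data known. Of the 8, 7 were found among the 30452 genes counted. The 7 were Hmgcs1, Idi1, Fdft1, Sqle, Lss, Cyp51 and Dhcr7, and the 8th, Fdps, was not analysed here. The labels name 3 irradiated and 3 control samples of hippocampus, all from male rats (the label stands under genotype, and no strain is given). The irradiated rats received 20 Gy to the whole brain 2 months before dissection, and the control rats carry the label control only. Tissue was digested to single cells, red cells were lysed and dead cells removed with magnetic beads, and the cells were loaded unsorted on the Chromium 3′ v3 platform, which counts unique molecular identifiers (UMIs) per cell. The matrix marks 6 libraries by barcode suffix, and nothing links a suffix to one of these samples. Irradiated and control rats were therefore not compared, and the libraries are called 1 to 6, with no condition.

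Cholesterol is built from acetyl-CoA by way of mevalonate, isoprenoid diphosphates, squalene and lanosterol. The brain makes its own, since lipoprotein cholesterol hardly crosses the blood-brain barrier. Oligodendrocytes need it for myelin, and astrocytes are known for handing it to neurons on apolipoprotein E particles. Most genes of the pathway are driven together by the sterol regulatory element binding proteins (SREBPs), which are released from the endoplasmic reticulum when its sterol content is low.

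RefSeq promoters (build GRCr8, 250 bases before to 50 bases after the gene start) were available for 6 of the 8 genes, all but Fdft1 and Sqle. The promoters of Hmgcs1 and Cyp51 are printed because these genes differed most between astrocyte-like and microglia-like cells. Those of Idi1 and Dhcr7 follow because their patterns departed from the other members. Capitals mark matches of CCAAT (or ATTGG on the other strand) and of GGGCGG (or CCGCCC).
Hmgcs1 (chr2:53382054-53382353, plus strand): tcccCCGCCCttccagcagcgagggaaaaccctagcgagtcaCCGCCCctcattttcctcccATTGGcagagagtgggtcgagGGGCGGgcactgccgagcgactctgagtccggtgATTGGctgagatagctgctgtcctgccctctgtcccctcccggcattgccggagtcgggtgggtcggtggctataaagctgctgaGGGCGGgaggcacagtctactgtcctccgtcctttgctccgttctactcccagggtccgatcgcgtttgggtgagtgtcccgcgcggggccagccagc
Idi1 (chr17:66547475-66547774, minus strand): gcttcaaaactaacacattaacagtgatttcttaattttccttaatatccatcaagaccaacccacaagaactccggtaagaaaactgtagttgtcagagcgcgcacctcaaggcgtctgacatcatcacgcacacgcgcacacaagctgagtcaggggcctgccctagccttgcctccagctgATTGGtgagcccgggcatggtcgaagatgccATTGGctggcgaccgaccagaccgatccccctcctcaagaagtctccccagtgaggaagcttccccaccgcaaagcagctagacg
Cyp51 (chr4:30991443-30991742, plus strand): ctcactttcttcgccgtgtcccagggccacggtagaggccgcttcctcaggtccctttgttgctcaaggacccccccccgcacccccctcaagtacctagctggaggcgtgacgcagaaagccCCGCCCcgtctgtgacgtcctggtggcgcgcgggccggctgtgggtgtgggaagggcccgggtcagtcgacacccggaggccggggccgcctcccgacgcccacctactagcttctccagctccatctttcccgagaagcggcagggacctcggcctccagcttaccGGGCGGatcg
Dhcr7 (chr1:208444184-208444483, plus strand): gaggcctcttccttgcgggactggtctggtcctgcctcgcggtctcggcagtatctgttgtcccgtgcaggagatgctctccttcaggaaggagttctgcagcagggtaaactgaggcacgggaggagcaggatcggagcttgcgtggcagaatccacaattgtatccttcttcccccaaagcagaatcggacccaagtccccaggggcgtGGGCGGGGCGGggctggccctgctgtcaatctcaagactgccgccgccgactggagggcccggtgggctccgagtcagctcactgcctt
CCAAT was found in 4 of the 6 promoters, those of Hmgcs1, Idi1, Fdps and Lss, against 37.5% of 33469 promoters of the same length. GGGCGG was found in 5 of the 6, all but Idi1, against 33.1% of promoters. The 2 GGGCGG matches of Dhcr7 share 1 base. The SREBP motif core TCACNCCA was in 0 of the 6 windows, against 3.89% of promoters, which says only that these letters are not in these windows. Both strands were searched, and a match is no sign of binding.

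After filtering, 45393 cells remained, 5462 to 9678 a library, with a median of 4974 UMIs. In these cells the members gave from 2045 UMIs (Lss) to 53129 UMIs (Cyp51). Cells were clustered without the members and named from marker genes. The main classes were astrocyte-like (11904 cells), mature oligodendrocyte-like (835), oligodendrocyte precursor-like (199), neuroblast or immature neuron-like (126, here neuroblast-like), T or NK cell-like (918), Clec7a Lyz2 macrophage-like (7178), border macrophage-like (692) and microglia-like (20506). Library 3 stood apart in that astrocyte-like cluster 10 and microglia-like clusters 4 and 6 came almost wholly from it. The Clec7a Lyz2 macrophage-like cells came from libraries 4 to 6. Precursor-like cells also passed 9 of 9 markers of newly formed oligodendrocytes and held 10791 CPM of the 13 mature oligodendrocyte markers, more than the 7845 CPM of their own 10 markers, and neuroblast-like cells all 14 cycling markers. In all, 410 barcode sequences occurred in more than 1 library, 251 of them among kept cells. Levels are UMIs per 1000000 UMIs of the class (CPM), given for libraries with at least 50 cells of the class.

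Summed over the members, cholesterol synthesis transcripts were highest in astrocyte-like cells, where Cyp51 gave 39.0% and Hmgcs1 27.5% of the members' UMIs. By gene, the pooled level was highest in astrocyte-like cells for Hmgcs1, Cyp51 and Dhcr7 only. For Idi1, Fdft1, Sqle and Lss it was highest in neuroblast-like cells, with a counting interval that overlapped the next class. These cells made up 26.2% of kept cells and held 70.0% of the members' UMIs, while microglia-like cells made up 45.2% and held 15.7%. Summed over the 7 members, the pooled level was 1358 CPM in astrocyte-like, 977 in neuroblast-like, 931 in precursor-like and 868 in mature oligodendrocyte-like cells. The macrophage-like classes and microglia lay far lower, at 202 CPM in border macrophage-like, 196 in Clec7a Lyz2 macrophage-like and 220.2 in microglia-like cells. T or NK cell-like cells had 301 CPM. The astrocyte-like libraries did not overlap with the microglia-like ones: the sum ran 1116 CPM in the lowest library, 1321 at the median and 1619.5 in the highest, against 169 CPM in the lowest library, 212 at the median and 249 in the highest in microglia-like cells. The counting interval of precursor-like cells overlapped those of neuroblast-like and of mature oligodendrocyte-like cells, while those of neuroblast-like and mature oligodendrocyte-like cells did not overlap each other.

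**Figure D1:**
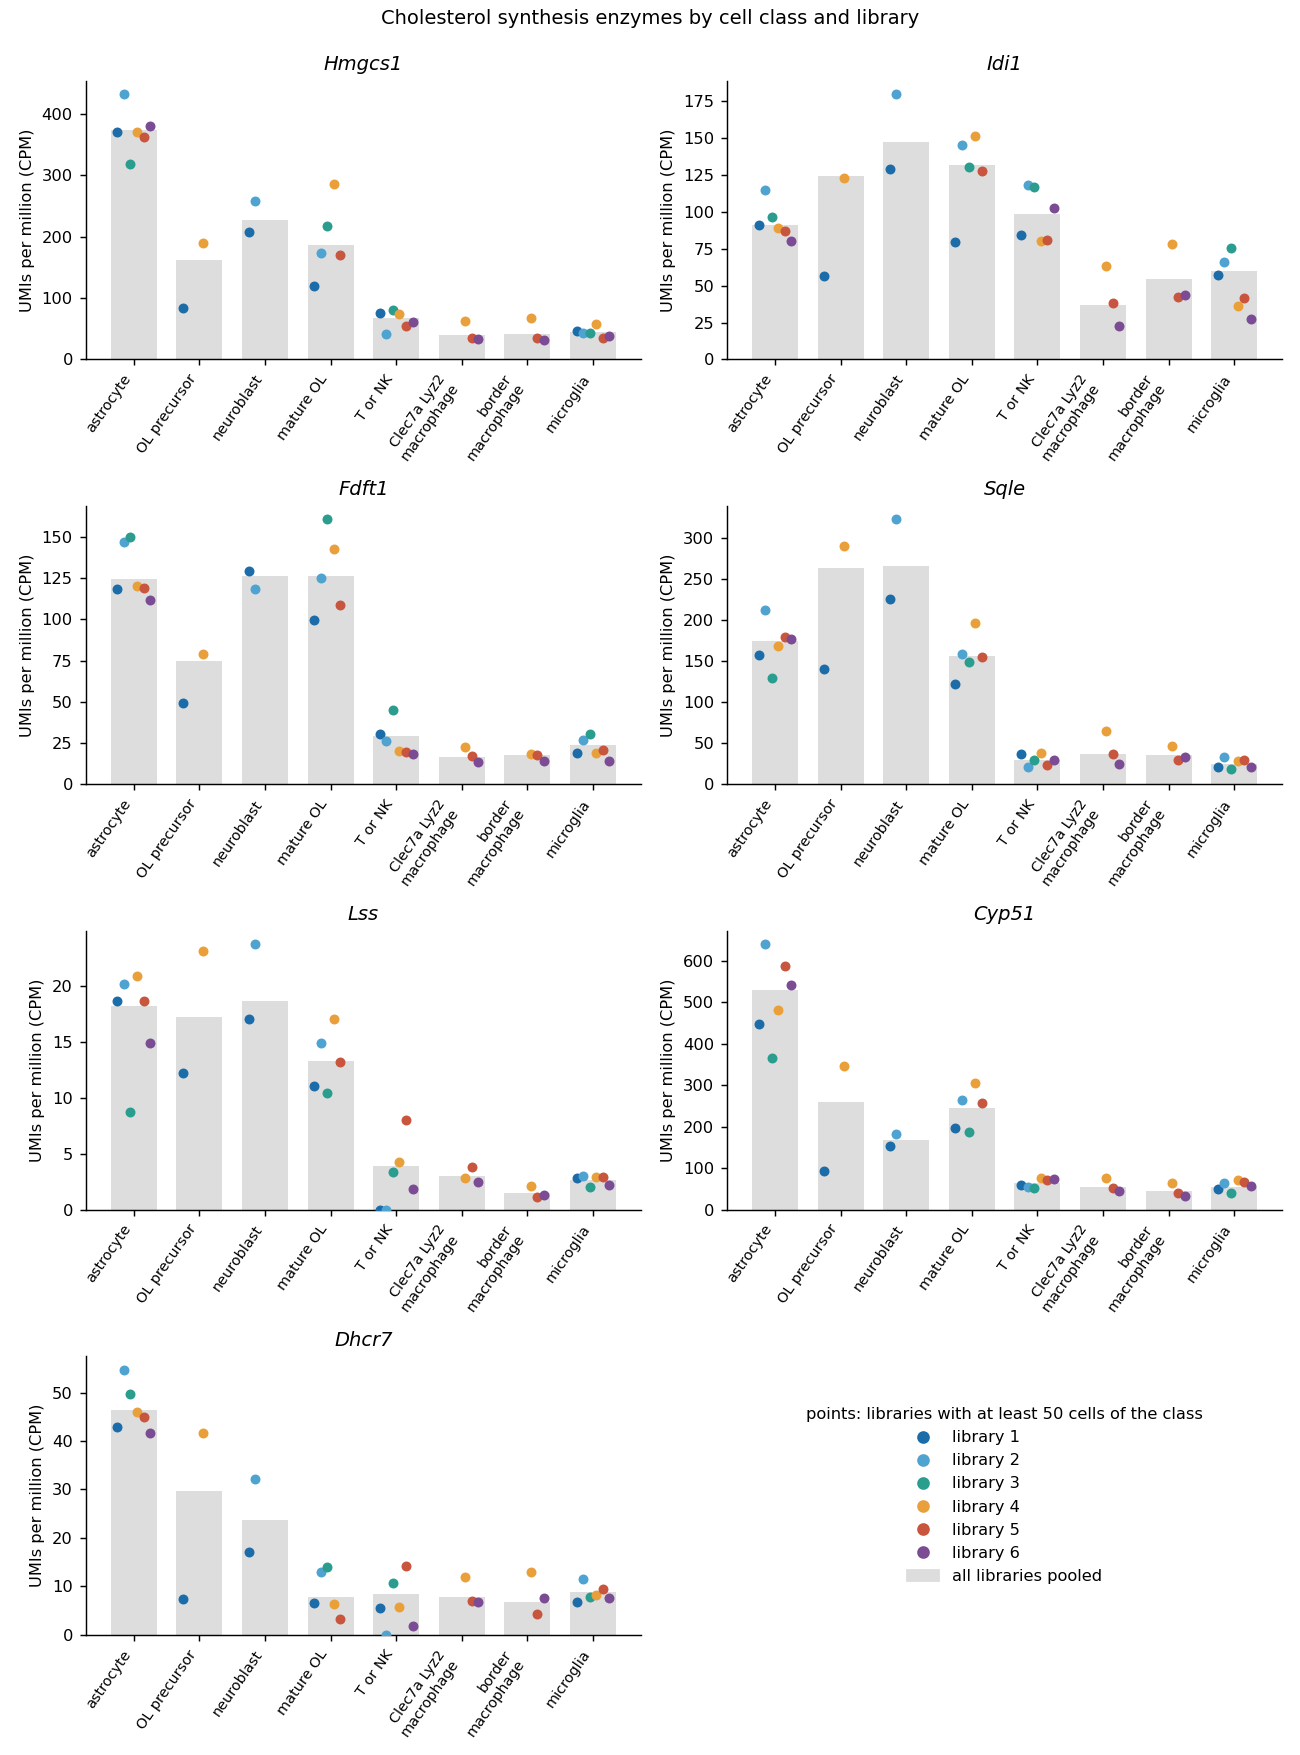
Level of each of the 7 members in CPM by cell class, 1 panel a gene; points are libraries with at least 50 cells of the class and grey bars are all libraries pooled. For Cyp51 all 6 astrocyte-like points lie above every other class, while for Idi1 the classes overlap and microglia-like cells reach 75.7 CPM.

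Hmgcs1, HMG-CoA synthase, an enzyme of the mevalonate steps, ran 318 CPM in the lowest library, 369.9 at the median and 432 in the highest over astrocyte-like libraries. Microglia-like cells had 35.6 CPM in the lowest library, 43.3 at the median and 57.5 in the highest. The lowest astrocyte-like library thus stood far above the highest microglia-like one, and the pooled levels differed 8.39-fold. Mature oligodendrocyte-like cells had 119, 173, 218, 286 and 170.0 CPM in libraries 1 to 5, above microglia-like cells and below astrocyte-like cells of the same library in all 5. Neuroblast-like cells had 207 and 258 CPM in libraries 1 and 2, and precursor-like cells 83.4 and 190.1 CPM in libraries 1 and 4. Precursor-like cells of library 1 were therefore nearer to microglia-like cells than those of library 4 were.

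Idi1, the isomerase that balances the activated isoprene units, broke this pattern. Astrocyte-like cells had 80.1 CPM in the lowest library, 90.1 at the median and 115 in the highest, against 27.1 CPM in the lowest library, 49.3 at the median and 75.7 in the highest in microglia-like cells, and the ranges nearly met. The plain ratio of pooled CPM was 1.52-fold, and the log2 ratio with 10 CPM added to both sides was 0.53. Within libraries the log2 ratio ran from 0.31 to 1.28, higher in astrocyte-like cells in 6 of 6 libraries but by at least 2-fold in only 2. Most microglia-like cells came from libraries 1 to 3, where their Idi1 level was higher, and most astrocyte-like cells from libraries 4 to 6, and the pooled ratio lies below the within-library median of 0.81. Idi1 was at least as high outside astrocytes: mature oligodendrocyte-like cells had 79.6, 145, 130.4, 151 and 128 CPM in libraries 1 to 5, above astrocyte-like cells in 4 of 5 libraries. T or NK cell-like cells had 80.0 CPM in the lowest library, 93.5 at the median and 118 in the highest, a range that overlapped the astrocyte-like one.

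Fdft1, squalene synthase, makes the first step committed to sterols. It had 112 CPM in the lowest library, 119.5 at the median and 149.9 in the highest in astrocyte-like cells, against 14.3 CPM in the lowest library, 20.3 at the median and 30.6 in the highest in microglia-like cells, with no overlap. Mature oligodendrocyte-like cells had 99.5, 125, 161, 143 and 109 CPM in libraries 1 to 5, which overlapped the astrocyte-like range, and the pooled astrocyte-like level was 0.985 times theirs. Neuroblast-like cells lay at the same height, with 129 and 119 CPM in libraries 1 and 2. Precursor-like cells had 49.1 and 78.8 CPM in libraries 1 and 4, below astrocyte-like cells in both.

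Sqle, squalene epoxidase, turns squalene into its epoxide. Its level in neuroblast-like cells was 226 and 322 CPM in libraries 1 and 2, above the astrocyte-like level in both. Precursor-like cells had 139.9 and 289.7 CPM in libraries 1 and 4, below astrocyte-like cells in library 1 and above them in library 4. Astrocyte-like cells had 129 CPM in the lowest library, 173 at the median and 212 in the highest, against 19.0 CPM in the lowest library, 25.1 at the median and 33.2 in the highest in microglia-like cells. Mature oligodendrocyte-like cells had 122, 158, 149, 196 and 155 CPM in libraries 1 to 5, higher than astrocyte-like cells in 2 libraries and lower in 3. Clec7a Lyz2 macrophage-like cells had 65.4, 36.8 and 24.8 CPM in libraries 4 to 6, so that library 4 stood well above the other two.

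Lss, lanosterol synthase, closes the sterol rings. It was thinly counted, with 8.77 CPM in the lowest library, 18.7 at the median and 20.9 in the highest in astrocyte-like cells, against 2.03 CPM in the lowest library, 2.87 at the median and 3.04 in the highest in microglia-like cells. Library 3 gave the lowest astrocyte-like value and the only within-library ratio under 2-fold with 10 CPM added to both sides (log2 0.64). Mature oligodendrocyte-like cells had 11.1, 14.9, 10.5, 17.0 and 13.2 CPM in libraries 1 to 5. Their pooled log2 ratio over microglia-like cells was 0.88 with 10 CPM added, a scale that understates the change of so low a gene, and the plain ratio of pooled CPM was 4.97.

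Cyp51, lanosterol 14-alpha demethylase, showed the largest ratio of the 7 between astrocyte-like and microglia-like cells. Astrocyte-like cells had 364 CPM in the lowest library, 511 at the median and 639 in the highest, against 40.1 CPM in the lowest library, 61.6 at the median and 71.0 in the highest in microglia-like cells. The plain ratio of pooled CPM was 9.66-fold, and within libraries the log2 ratio of (CPM + 10) lay between 2.60 and 3.11. Mature oligodendrocyte-like cells had 197, 265, 186, 305 and 256 CPM in libraries 1 to 5, below astrocyte-like cells in each. Neuroblast-like cells had 154 and 181 CPM in libraries 1 and 2. Precursor-like cells had 93.3 and 345 CPM in libraries 1 and 4, and the library 1 value was near the microglia-like range.

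Dhcr7, the reductase of the last step to cholesterol, separated the glial classes differently. Astrocyte-like cells had 41.7 CPM in the lowest library, 45.5 at the median and 54.7 in the highest, against 6.83 CPM in the lowest library, 8.0 at the median and 11.6 in the highest in microglia-like cells. Mature oligodendrocyte-like cells, in which the earlier enzymes were high, had only 6.63, 12.9, 14, 6.39 and 3.30 CPM in libraries 1 to 5, a range that overlapped the microglia-like one. Pooled, they had 7.82 CPM (95% interval 5.51 to 10.8), an interval that covers counting error only. The astrocyte-like level was 5.93 times the mature oligodendrocyte-like level and at least 2-fold higher in 5 of 5 libraries. Precursor-like cells had 29.6 CPM (95% interval 20.7 to 40.9), with 7.36 and 41.7 CPM in libraries 1 and 4. Libraries 1 and 4 therefore differed widely, and the pooled level also holds cells of libraries with under 50 precursor-like cells.

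**Figure D2:**
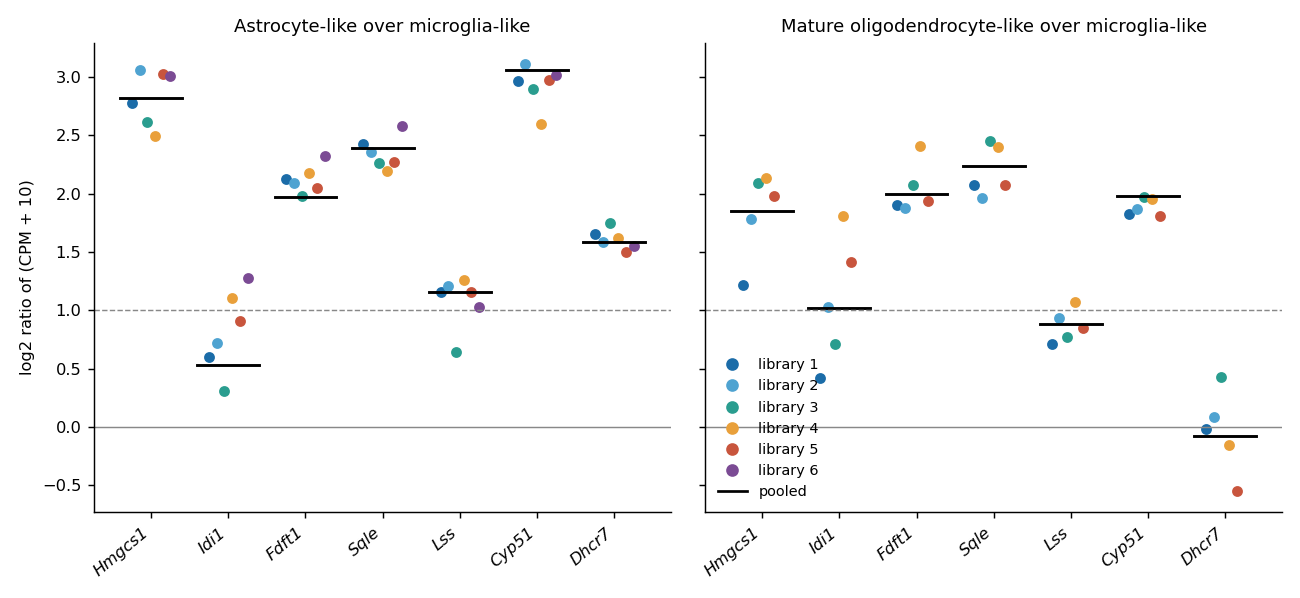
Within-library log2 ratio of (CPM + 10) for each member, astrocyte-like over microglia-like cells (left) and mature oligodendrocyte-like over microglia-like cells (right); points are libraries, black lines the pooled ratio, the dashed line 2-fold. Idi1 is the lowest astrocyte-like ratio, pooled 0.53, and Dhcr7 lies around 0 in mature oligodendrocyte-like cells, pooled -0.07.

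A difference was called where the pooled log2 ratio with 10 CPM added was at least 1, over genes with at least 10 CPM in either class. Over microglia-like cells, 6 of the 7 members were called higher in astrocyte-like cells, all but Idi1, beside 23.3% of 9706 genes. The members' median log2 ratio was 1.97, against 0.27 over all genes tested. In mature oligodendrocyte-like cells 5 of 7 were called, beside 17.8% of genes; Lss was not, and Dhcr7 was under 10 CPM in both classes. Idi1 was at the border there, with a log2 ratio of 1.02, and the call was lost without library 4 (0.94) or library 6 (0.97). It was also lost with doublets kept (0.70), at a 10% mitochondrial limit (0.93), at clustering resolution 0.5 (0.93) and with cells thinned (0.95). Lss, uncalled, was at 1.96 with 1 CPM added in place of 10. In neuroblast-like cells 6 were called, all but Dhcr7, beside 25.6% of genes, and in precursor-like cells 6, all but Idi1, beside 28.5%. In both small classes the count changed with 1 library left out: the neuroblast-like count was 7 without library 1 and 4 without library 2. Without library 2, neuroblast-like Idi1 was at log2 0.98 and Lss at 0.99, just under the threshold. The precursor-like count was 7 without library 1 or library 3 and 4 without library 4. It was also 4 with cells thinned, where Fdft1 was at log2 0.62 and Dhcr7 at 0.98, and 5 with doublets kept or by the median of within-library ratios. The neuroblast-like count was 5 with doublets kept. No member was called lower in any of the 4 classes, beside 13.9% of genes in astrocyte-like, 16.1% in mature oligodendrocyte-like, 12.7% in neuroblast-like and 9.95% in precursor-like cells.

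Over microglia-like cells 0 members were called higher in Clec7a Lyz2 macrophage-like cells (5.43% of genes), border macrophage-like cells (6.18%), T or NK cell-like cells (11.7%), neutrophil-like cells (12.9%) and cycling cells (7.76%). Cycling cells held 4943 CPM of Clec7a Lyz2 macrophage markers, against 1572 CPM in microglia-like cells, and 14650 CPM of microglia markers, against 27870 CPM. In neutrophil-like cells 0 were called lower, beside 24% of genes. Of the 7 members, 6 passed the filter of 10 CPM in cycling cells and 5 in each of the other 4 classes, and at such background shares a count of 0 says little about the members. In cycling cells the 6 had a median log2 ratio of 0.42, against 0.12 over all genes. There the plain ratio of pooled CPM was 2.32-fold for Sqle (log2 0.96 with 10 CPM added) and 2.19-fold for Dhcr7, each higher in 3 of 3 libraries. Lss, under 10 CPM in both classes, was 3.31-fold higher, also in 3 of 3. None was called in cluster 15 (0.774% of genes) or cluster 18 (1.66%). These microglial clusters had MHC class II genes among their leading genes, after Ccl2, Cxcl2 and Ccl4 in cluster 18. Cluster 24, with endothelial and mural markers, had 0 as well (18.5%). It also held 12085 CPM of red blood cell markers, against 6824 CPM of endothelial markers, and was left unnamed for that reason. Cluster 26, whose 118 cells carried both astrocyte and microglia markers, had 4 called higher (13.9%) and a summed level of 706 CPM, between the classes it resembled. No p-value was computed, since cells are not replicates and the libraries have no known condition.

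Set against each other, astrocyte-like and mature oligodendrocyte-like cells differed for Cyp51 (2.15-fold higher in astrocyte-like cells) and Dhcr7, the 2 members of 7 called, beside 18.9% of genes. Hmgcs1 just missed the threshold at 2.00-fold, higher in astrocyte-like cells in 5 of 5 libraries. Precursor-like cells exceeded mature oligodendrocyte-like cells by 2-fold for Dhcr7 alone, 3.78-fold, beside 21.9% of genes. The within-library log2 ratios for Dhcr7 were 0.06 in library 1 and 1.66 in library 4, so it reached 2-fold in only 1 of these 2 libraries. Precursor-like cells were called lower than astrocyte-like cells for Hmgcs1 and Cyp51, at 0.435 and 0.49 times their level, beside 9.01% of genes. Each was 2-fold lower in 1 of 2 libraries: the log2 ratios in libraries 1 and 4 were -2.02 and -0.92 for Hmgcs1 and -2.14 and -0.47 for Cyp51, and Cyp51 lay at the threshold when pooled.

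The classes also differed in how their members' UMIs were divided among the genes. Idi1 took 5.95% to 8.64% of the members' UMIs in astrocyte-like libraries, 12.5% to 16.2% in mature oligodendrocyte-like, 26.7% to 45.0% in T or NK cell-like and 16.0% to 34.6% in microglia-like libraries. The astrocyte-like range lay wholly below those of these 3 classes. Cyp51 took 32.7% to 42.1% in astrocyte-like and 18.3% to 34.3% in microglia-like libraries. Dhcr7 took 0.396% to 1.61% in mature oligodendrocyte-like libraries, below 3.10% to 4.45% in astrocyte-like and 3.39% to 4.65% in microglia-like libraries. Sqle took 26.5% to 31.7% in the 2 precursor-like and 25.7% to 28.9% in the 2 neuroblast-like libraries, against 11.6% to 13.2% in astrocyte-like libraries.

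Within microglia-like cells Idi1 varied between clusters of the same library. Cluster 0 of library 1 had 82.1 CPM of Idi1, and cluster 3 of that library 27.7 CPM. In library 2 the same clusters had 90.1 and 27.6 CPM. Library 3 had 105 CPM in cluster 6, led by the inflammatory genes Ccl2, Ccl4, Ier3 and Cxcl2, and 44.9 CPM in cluster 4. Cluster 15 reached 133 CPM in library 1 and 123 CPM in library 2, and cluster 18 had 94.2 CPM in library 3. Every one of these within-library pairs was wider for Idi1 than for Hmgcs1, which had 47.5 and 43.4 CPM in clusters 0 and 3 of library 1. In library 2 Hmgcs1 had 45.8 and 38.0 CPM, and in library 3 it had 52.2 and 34.2 CPM in clusters 6 and 4. Insig1, the sterol sensor that holds SREBPs back and is itself an SREBP target, followed Idi1: 72.2 and 24.4 CPM in clusters 0 and 3 of library 1, 50.2 and 24.7 in library 2, and 74.7 and 38.6 in clusters 6 and 4 of library 3. The clusters were drawn without these genes, but they are clusters of the same cells, so these values are a description.

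**Figure D3:**
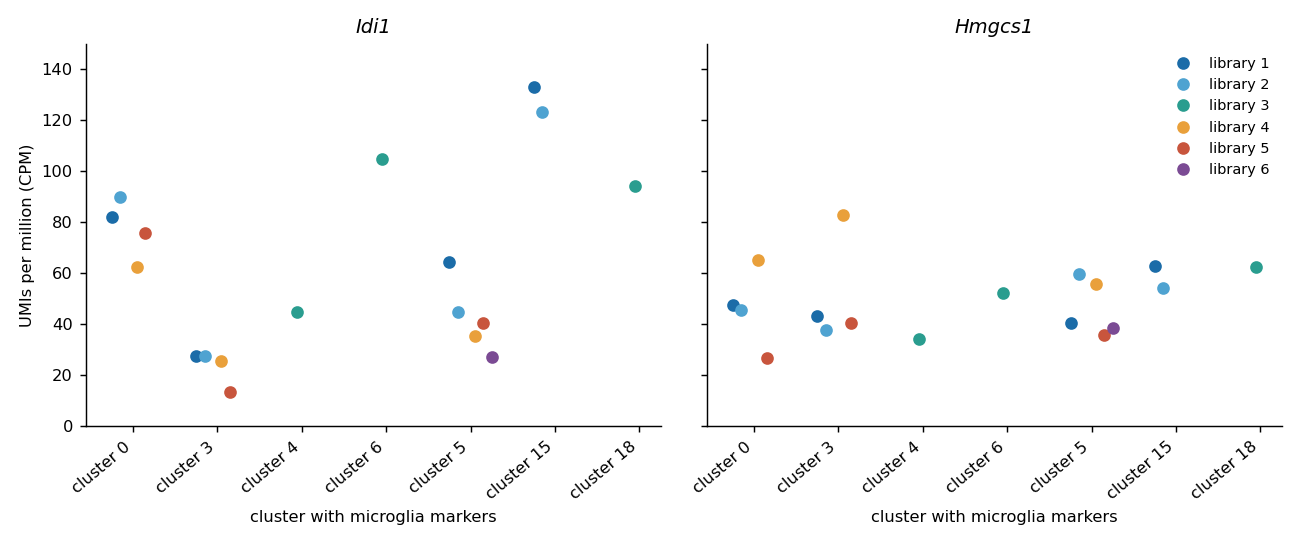
Idi1 (left) and Hmgcs1 (right) in CPM in the clusters with microglia markers, 1 point a library with at least 50 cells of the cluster. Idi1 is higher in cluster 0 than in cluster 3 in each of the 4 libraries shown, and highest in cluster 15, at 133 CPM in library 1.

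Among astrocyte-like clusters the summed level also varied. Cluster 9, which had less Gfap, a filament protein of reactive astrocytes, exceeded the largest astrocyte-like cluster, cluster 1, in all 5 libraries that held both. The sums were 1677, 1905, 1698, 1609 and 1699 CPM in cluster 9 of libraries 1, 2, 4, 5 and 6, against 1151, 1545, 1309, 1348 and 1244 CPM in cluster 1. In library 1 cluster 9 held 416 CPM of Gfap, against 1300.3 CPM for cluster 1, and Gfap was lower in cluster 9 in the other 4 libraries too. Cluster 11, of which 907 of 915 cells came from library 4, had 756 CPM, and cluster 10, with 1162 of 1184 cells from library 3, had 1122 CPM. Each of these stands for 1 library. Pooled, cluster 10 had the lowest Gfap level of the 6 astrocyte-like clusters, 956 CPM, against 996 CPM in cluster 9 and 1784 CPM in cluster 1. Its sum lay below the 1338 CPM of cluster 1. Clusters 1 and 9 had no value in library 3, so cluster and library cannot be told apart here. Within library 3, cluster 7 had a sum of 1066 CPM at 993 CPM of Gfap, and cluster 12 had 751 CPM at 1613 CPM. In library 1, cluster 7 had less Gfap than cluster 1, 1068 CPM, and also a lower sum, 1115 CPM.

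Depth and RNA quality were set beside the levels. The astrocyte-like sum was 1295, 1428, 1341 and 1311 CPM in cells with 0 to 5, 5 to 10, 10 to 15 and 15 to 20% mitochondrial UMIs. With mitochondrial genes left out of the total, it was 1343, 1553, 1531 and 1585 CPM in these bins. Over the same bins the sum was 152, 169, 266 and 301 CPM in Clec7a Lyz2 macrophage-like cells, with 1538, 2157, 3603 and 4564 CPM of astrocyte markers, so both were higher in cells with a higher mitochondrial share. In microglia-like cells it was 219, 218, 229 and 289 CPM. Over UMIs per cell the astrocyte-like sum ran from 1152 CPM in cells under 2000 UMIs to 1555 CPM in cells over 16000. Clec7a Lyz2 macrophage-like cells went the other way, with 357, 275, 205, 142 and 117 CPM in the same 5 bins of UMIs. The 16 astrocyte markers, summed over the same macrophage-like cells, ran in parallel, at 4908, 3661, 2654, 1759.8 and 1544 CPM. Microglia-like cells had 324 CPM of the members in the shallowest and 175 CPM in the deepest bin, with 3472 and 1663 CPM of astrocyte markers. The part that RNA of other cells plays in these trends was not tested.

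**Figure D4:**
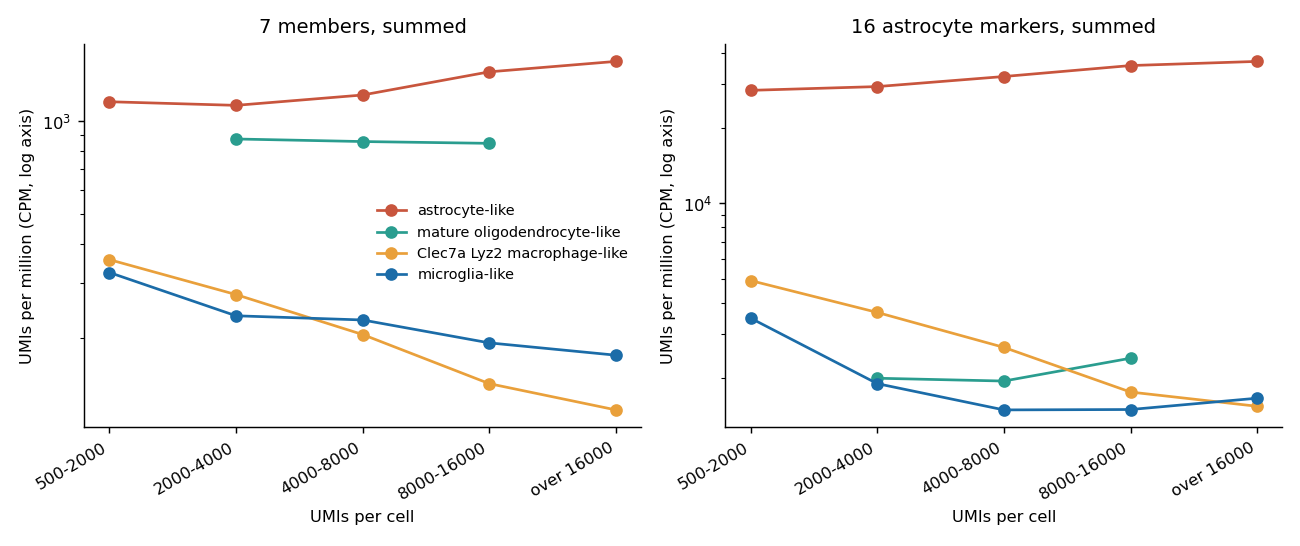
Summed level of the 7 members (left) and of 16 astrocyte markers (right), in CPM (log axis), by UMIs per cell, for 4 cell classes; each point pools all cells of a class in the bin, and bins under 50 cells are not drawn. In Clec7a Lyz2 macrophage-like cells both sums are highest in the shallowest cells, 357 and 4908 CPM.

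Astrocyte transcripts were present in every class at a low level, so the members were also expressed as a percent of the astrocyte-like level of the same library. In microglia-like cells the astrocyte marker list stood at 3.08% to 10.0%. Cyp51 stood at 10.2% to 14.8% there, Hmgcs1 at 9.85% to 15.5% and Idi1 at 33.9% to 78.5%. Each of the 7 members exceeded the marker list in 6 of 6 microglia-like libraries. In border macrophage-like cells the marker list stood at 4.67% to 10.3% and Cyp51 at 5.92% to 13.2%, above the list in 2 of 3 libraries. In mature oligodendrocyte-like cells the list stood at 5.09% to 10.4% and all 7 members exceeded it in 5 of 5 libraries. Dhcr7, at 7.33% to 28.1%, came nearest. How much of the low immune-cell levels is RNA released by other cells was not tested.

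Cells were thinned to 2000 UMIs each, leaving out shallower ones, to compare the share of cells with a UMI of any member. That share was 87.5% (95% interval 86.8 to 88.1) in astrocyte-like, 76.4% (95% interval 67.9 to 83.6) in neuroblast-like, 74.0% (95% interval 70.8 to 77.0) in mature oligodendrocyte-like and 58.5% (95% interval 51.3 to 65.6) in precursor-like cells. It was 37.4% in T or NK cell-like, 31.7% in Clec7a Lyz2 macrophage-like, 31.0% in border macrophage-like and 33.3% in microglia-like cells. Unthinned, astrocyte-like cells had 98.0% at a median of 7376 UMIs and microglia-like cells 60.2% at a median of 4902 UMIs. Cyp51 was found in 57.8% of astrocyte-like and 10.2% of microglia-like cells, and Dhcr7 in 8.86% of astrocyte-like and 1.87% of microglia-like cells. Idi1 was found in 21.0% of mature oligodendrocyte-like, 16.6% of T or NK cell-like, 15.8% of astrocyte-like and 9.34% of microglia-like cells. Sqle was found in 43.1% of neuroblast-like, 32.1% of precursor-like and 27.0% of astrocyte-like cells. Free RNA also gives such UMIs, and the lowest of these shares, those of the macrophage-like and microglia-like classes, were not separated from it.

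The rest of the synthesis pathway mostly followed the members. Of 11 further enzymes, 9 were in the matrix, and 8 passed 10 CPM in either class. Of these 8, 6 were called higher in astrocyte-like than in microglia-like cells, beside 23.3% of all genes. The median log2 ratio of the 8 was 1.56, against 0.27 over all genes tested. Msmo1, the sterol C4 oxidase, had 319.7 CPM in astrocyte-like and 51.6 CPM in microglia-like cells. Sc5d, the C5 desaturase, had 92.5 CPM in astrocyte-like and 11.1 CPM in microglia-like cells. The exception was Ebp, the sterol isomerase, called lower at 8.27 CPM in astrocyte-like and 37.9 CPM in microglia-like cells. Mature oligodendrocyte-like cells had 57.5 CPM of Ebp, and 5 of 8 enzymes were called higher there than in microglia-like cells, beside 17.8% of genes. Pmvk, phosphomevalonate kinase, reached 136 CPM in mature oligodendrocyte-like cells, while microglia-like cells had 20.1 CPM. Mvd, the decarboxylase of the next step, had 10.8 CPM there, below the 20.2 CPM of microglia-like cells. Acat2, which condenses acetyl-CoA at the entry, was highest in neuroblast-like cells, at 134 CPM.

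**Figure D5:**
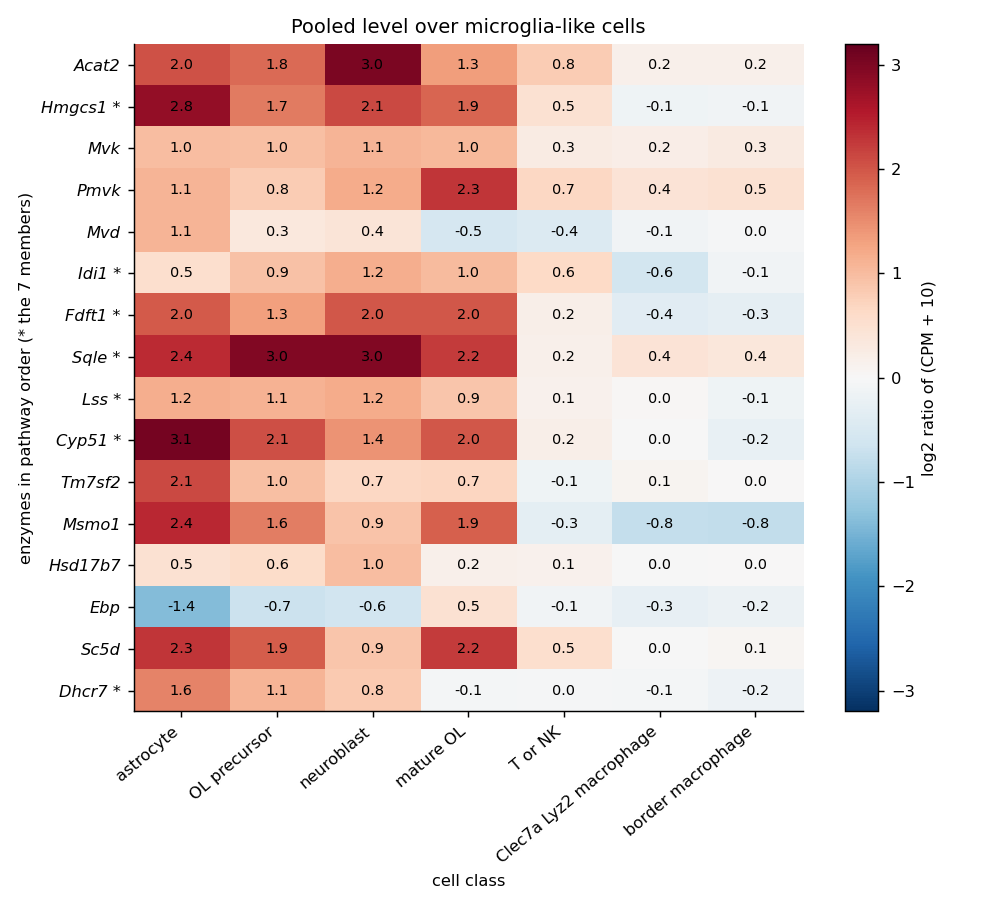
Pooled log2 ratio of (CPM + 10) over microglia-like cells for 16 synthesis enzymes in pathway order (rows, members starred) in 7 cell classes (columns); red is higher and blue lower than in microglia-like cells. Cyp51 in astrocyte-like cells has the highest ratio, 3.06, while Ebp in astrocyte-like cells is lower.

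The isoprenoid branch, which leaves the pathway before squalene, gave 0 of 7 tested genes called in either direction in astrocyte-like over microglia-like cells, beside 23.3% of all genes called higher and 13.9% lower. Their median log2 ratio was -0.08, against 0.27 over all genes. Fnta, a subunit of protein farnesyl and geranylgeranyl transferases, stood out in precursor-like cells at 411 CPM and in mature oligodendrocyte-like cells at 228 CPM, while microglia-like cells had 63.5 CPM. Among 8 tested SREBP regulators and targets, 4 were called higher in astrocyte-like cells and 1 lower, beside the same background. Srebf1, an SREBP gene known mostly for fatty acid synthesis, had 290.0 CPM in astrocyte-like and 42.8 CPM in microglia-like cells. Srebf2, the one known for cholesterol synthesis, had 127 CPM in astrocyte-like and 51.8 CPM in microglia-like cells. Scap, the escort protein of SREBPs, had 92.4 CPM in astrocyte-like and 23.2 CPM in microglia-like cells. The gene called lower was Mylip, a ubiquitin ligase, with 9.52 CPM in astrocyte-like and 136 CPM in microglia-like cells.

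The members' joint pattern was compared with that of 13502 genes over 48 sums of a class in a library, which share libraries and depth. The 10 genes most like the members' mean, by Pearson correlation of log2(CPM + 10), were Zhx2, Ptbp2, Fasn, Fam171b, Kif21a, Bmpr1a, Hspa4l, Prnp, Sec61a2 and ENSRNOG00000063824, with r between 0.90 and 0.92. Fasn encodes fatty acid synthase, and Prnp the prion protein. With sums of at least 20 cells (62 sums), 4 of these 10 stayed among the 10 nearest. Among the 21 pairs of members, r ran from 0.40 (Idi1 and Dhcr7) over a median of 0.74 to 0.95 (Cyp51 and Hmgcs1). These values describe the sums and carry no p-value.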

How the data were processed

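The authors deposited 1 matrix of UMI counts (whole numbers, not normalized) for 30452 genes and 58078 barcodes, holding 329205505 UMIs. It was written by Cell Ranger 7.0.0, per the file headers. The submitters' processing notes name genome build mm10, a mouse build, while the gene identifiers are rat Ensembl identifiers. The annotation, intron counting and any equalisation of depth were not given in the sources used here. Barcode suffixes mark 6 libraries, and 0 could be tied to the 6 labelled samples, so the planned test of irradiated against control samples was not run and samples entered no groups.

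Kept were 48704 barcodes with 500 UMIs, 200 genes or more and a share of the 37 mitochondrial genes up to 20%. Doublets were found per library by comparison with simulated cell pairs, and 0.8% per 1000 barcodes were removed (3311, 6.80%). The 45393 cells left were scaled to 10000 UMIs, log-transformed and clustered (2000 variable genes, 30 principal components, 15 neighbours, Leiden resolution 1) into 33 clusters. The members and 4 other pathway lists were kept out of the variable genes. Cluster names (X-like) required a mean marker log2 ratio of 1 or more against the median cluster, a lead of 0.5 on every other class, and 3 or more passing markers, each in 10% of cells. RNA of other cells was neither estimated nor removed. Counts were summed per class and library (at least 50 cells) and given as CPM (UMIs per 1000000 UMIs of the sum). Intervals are exact 95% Poisson or binomial and cover counting error only.

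Ratios had 10 CPM added to both sides and were called at 2-fold, over genes with at least 10 CPM in either class. The ratio step was tested on simulated data. The text names all members, genes of the lists with at least 10 CPM in a class of at least 100 cells, and the 10 genes most like the members. The members, lists and markers were chosen with earlier results of these data known, 3 genes of the lists are not reported here, and the details of cluster naming were settled after the data had been seen. Clusters came from leidenalg 0.10.2 with python-igraph 0.11.9, and components from scikit-learn 1.9.0, under Python 3.11.15. Tables used pandas 2.3.3 and NumPy 2.4.6, intervals SciPy 1.17.1, and plots matplotlib 3.10.9. Alternatives covered the mitochondrial limit, doublets, clustering genes and resolution, the CPM denominator, depth, the added CPM, the filter, pooling and each library left out.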

Additional observations from a re-analysis of the deposited data

How the results depend on the processing

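In astrocyte-like cells the 6 members called higher than in microglia-like cells remained called under every alternative run, and Idi1 remained uncalled. Of 223 alternative values behind the main comparisons 26 moved, and 94 of 778 of the other values, with 0 reversed. The 26 leave out the changed counts of members called higher than in microglia-like cells. Those counts ran from 4 to 6 in mature oligodendrocyte-like cells and from 4 to 7 in precursor-like and in neuroblast-like cells. Without the filter on low genes the share of all genes called higher was 10.6% in astrocyte-like, 8.02% in mature oligodendrocyte-like, 14.8% in precursor-like, 12.7% in neuroblast-like, 2.62% in border macrophage-like, 2.23% in Clec7a Lyz2 macrophage-like and 5.16% in T or NK cell-like clusters, and 10.7% lower in neutrophil-like cells, since more genes are then counted. The astrocyte-like sum was 1547 CPM when mitochondrial genes were left out of the total. The precursor-like sum was 1121 CPM at a 10% mitochondrial limit, 862 with doublets kept, 1041 without mitochondrial genes, 751 with cells thinned to 2000 UMIs, and 774 to 1177 with each library left out. The neuroblast-like sum was 1043, 1075 and 1057 CPM at the 10% limit, without mitochondrial genes and thinned, and 874 to 1061 with each library left out. These 2 classes hold 199 and 126 cells, and their counts limit their precision. In neutrophil-like cells the count called lower than in microglia-like cells was 0, and 1 at the 10% limit, with 1 CPM added and by the median of within-library ratios, and 0 to 1 with each library left out. With doublets kept, no cluster was named neutrophil-like. Thinned to 1000 UMIs, the share of cells with any member was 67.5% in astrocyte-like, 55.6% in neuroblast-like, 51.3% in mature oligodendrocyte-like and 44.9% in precursor-like cells. It was 22.4% in T or NK cell-like, 19.2% in Clec7a Lyz2 macrophage-like, 18.1% in border macrophage-like and 19.1% in microglia-like cells, a loss that fewer UMIs per cell bring by construction. Of the 10 genes most like the members, 4 were shared with sums of at least 20 cells. Other causes were not tested. No paired analysis was possible because no column carries the replicate numbers of the labels.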

Other observations

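Genes of cholesterol transport, storage and turnover were called in both directions. Of 13 tested, 4 were called higher and 4 lower in astrocyte-like than in microglia-like cells, beside 23.3% of all genes higher and 13.9% lower, and the count higher is near that share. Apoe, the main brain apolipoprotein, had 38578 CPM in astrocyte-like and 16478 CPM in microglia-like cells. Cyp46a1, which turns cholesterol into 24S-hydroxycholesterol, had 112 CPM in astrocyte-like and 6.04 CPM in microglia-like cells. On the other side, Abcg1, a sterol exporter, had 3.84 CPM in astrocyte-like and 80.7 CPM in microglia-like cells. Lipa, the lysosomal cholesteryl ester hydrolase, had 17.7 CPM in astrocyte-like and 251 CPM in microglia-like cells. Ch25h, which makes 25-hydroxycholesterol, had 35.0 CPM in astrocyte-like cells, 1492 in Clec7a Lyz2 macrophage-like and 636 in microglia-like cells. Soat1, which stores cholesterol as esters, had 137 CPM in Clec7a Lyz2 macrophage-like and 35.8 CPM in microglia-like cells. Npc1, which moves cholesterol out of lysosomes, was at 245 CPM in mature oligodendrocyte-like and 60.4 CPM in microglia-like cells.

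Over the 6 libraries, which carry no condition, Idi1 in microglia-like cells took 56.9, 66.0, 75.7, 36.0, 41.6 and 27.1 CPM in libraries 1 to 6. The values of libraries 1 to 3 lay above those of libraries 4 to 6, but the libraries fill different clusters. Cluster 5 held 1501 of the 1651 microglia-like cells of library 4, 1158 of 1386 in library 5 and 499 of 516 in library 6, and few of libraries 1 and 2. Within cluster 0 Idi1 was at 82.1, 90.1, 62.7 and 75.8 CPM in libraries 1, 2, 4 and 5, and within cluster 3 at 27.7, 27.6, 25.5 and 13.6 CPM. Within cluster 5 it was at 64.3, 44.9, 35.4, 40.6 and 27.2 CPM in libraries 1, 2, 4, 5 and 6. Cyp51 in all microglia-like cells took 48.5, 65.2, 40.1, 71.0, 66.1 and 58.0 CPM, with no such split. The members summed over Clec7a Lyz2 macrophage-like cells took 305, 189.8 and 149 CPM in libraries 4 to 6, and library 4 also had the highest astrocyte marker sum in these cells, 3958 CPM, against 2122 to 2207 CPM in the other 2. Its part in that result was not tested.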
